A study of Mus musculus with 2 samples.

Results

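The ADAM, ADAMTS, MMP and TIMP genes encode the extracellular metalloproteinases of 3 related families and their tissue inhibitors. Members were all genes of the deposited gene list whose symbol begins with Adam and a digit, with Adamts, with Mmp and a digit or with Timp and a digit, so that the ADAMTS-like genes are included. The list held 83 such genes among 30905, and 60 of the 83 had at least 20 UMIs (unique molecular identifiers, each standing for 1 tagged RNA molecule) over the whole matrix. These measured members were 21 of 33 ADAM genes, 19 of 19 ADAMTS genes, 5 of 5 ADAMTS-like genes, 11 of 22 MMP genes and 4 of 4 TIMP genes. Adam1b with 27 UMIs, Adam28 with 29 and Adam3 with 32 lay just inside the minimum, and Mmp21 with 18, Adam29 with 16 and Adam7 with 12 just outside it. A further 13 members, among them Mmp3, Mmp7, Mmp10 and Mmp12, had no UMI in either library.

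The data are RNA profiles of single nuclei, isolated from frozen tissue that the labels give as cerebral cortex. The mice were wild-type C57BL/6 on a normal diet without treatment, and the libraries were made with droplet chemistry from 10x Genomics. There were 2 groups, mice aged 2 months and mice aged 18 months, given in the design text as ranges that reach 3 and 22 months, and the nuclei of 3 mice were pooled in each group. Both groups lie in 1 matrix whose barcodes end in 1 of 2 suffixes, called library 1 and library 2 here, and the labels do not say which suffix is which age. The libraries are therefore set side by side with no age, no replicate and no test, and all intervals cover counting error only.

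ADAM proteases are membrane proteins that release the outer part of other membrane proteins, and several ADAMs without catalytic activity act as receptors at synapses. ADAMTS enzymes are secreted and cut proteoglycans, procollagens and other matrix proteins, while ADAMTS-like proteins share their ancillary domains and lack the protease. MMPs cut matrix proteins and cell surface proteins, and TIMPs block the active site of MMPs and, in part, of ADAMs and ADAMTS enzymes; in brain these families are known for remodelling the vessel wall, the meninges, myelin and the perineuronal matrix.

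The libraries held 58108297 and 60547146 UMIs over 8914 and 8587 barcodes, and 8216 and 7910 nuclei were kept. The members held 125408 and 130424 of those UMIs. Nuclei were clustered without the members, and clusters were named from marker genes, so a class name means nuclei that are like that class and may differ from the study's own names. Of the classes, 11 had at least 50 nuclei in each library and were compared: excitatory (4277 and 4368 nuclei), inhibitory (710 and 600) and striatal projection neurons (385 and 228), astrocytes (430 and 415), oligodendrocyte precursors (129 and 157), oligodendrocytes (893 and 419), microglia (218 and 211), endothelial nuclei (152 and 289), pericytes with smooth muscle (62 and 83), fibroblasts (106 and 109) and a meningeal fibroblast class marked by Slc47a1 (91 and 99). A further 712 and 837 kept nuclei (8.67% and 10.6%) had no class name and were left out of the comparison of classes. Most were in a cluster of 555 and 724 nuclei with few UMIs, whose closest class was the excitatory neuron. No marker of a compared class was at 0 in its own class. The summed level of 6 excitatory markers was 2937 and 3090 CPM (counts scaled to a class sum of 1000000) in excitatory neurons, 1067 and 705 CPM in the Slc47a1 class and 766 and 862 CPM in fibroblasts, so RNA of neurons was counted in other classes, and its part in the results was not tested. The labels give cerebral cortex, yet nuclei with striatal and hippocampal markers were present. The libraries shared 19 barcode sequences.

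A member's level is the sum of its UMIs in all nuclei of 1 class in 1 library, in CPM of that class sum, with an exact 95% Poisson interval. Levels are compared across classes within a gene and not between genes. A gene was called concentrated in a class where its CPM plus 1 was at least 4-fold the mean of the other compared classes plus 1 in both libraries. By this rule 16 of 60 members (26.7%) were concentrated in at least 1 class, against 13.1% of the 18945 genes with at least 20 UMIs. The vascular and meningeal classes held 11 of the 60 members, whereas 6.13% of all genes were concentrated there. Glia held 4 of the 60 (5.61% of all genes) and neurons 1 of the 60 (1.45% of all genes), both close to the share of all genes. Fibroblasts and the Slc47a1 class held 5 members each, which is 8.33% of members, against 1.39% and 1.48% of all genes. Oligodendrocyte precursors held 2 (0.85% of all genes), and oligodendrocytes (1.16%), microglia (2.15%), endothelial nuclei (2.33%), pericytes with smooth muscle (1.11%) and striatal neurons (0.776%) held 1 each. Excitatory neurons (0.0581% of all genes), inhibitory neurons (0.623%) and astrocytes (1.53%) held 0. Mmp28 was called in 2 classes. The typical member was not shifted in the same way. The median log2 ratio of members in fibroblasts to the mean of the other classes was 0.08 in library 1 and -0.27 in library 2, against -0.06 for all genes in each. In the Slc47a1 class it was -0.20 and 0.05, against -0.18 and -0.13. The highest class was the same in both libraries for 35 of 60 members (58.3%), against 40.9% of all genes.

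**Figure D1:**
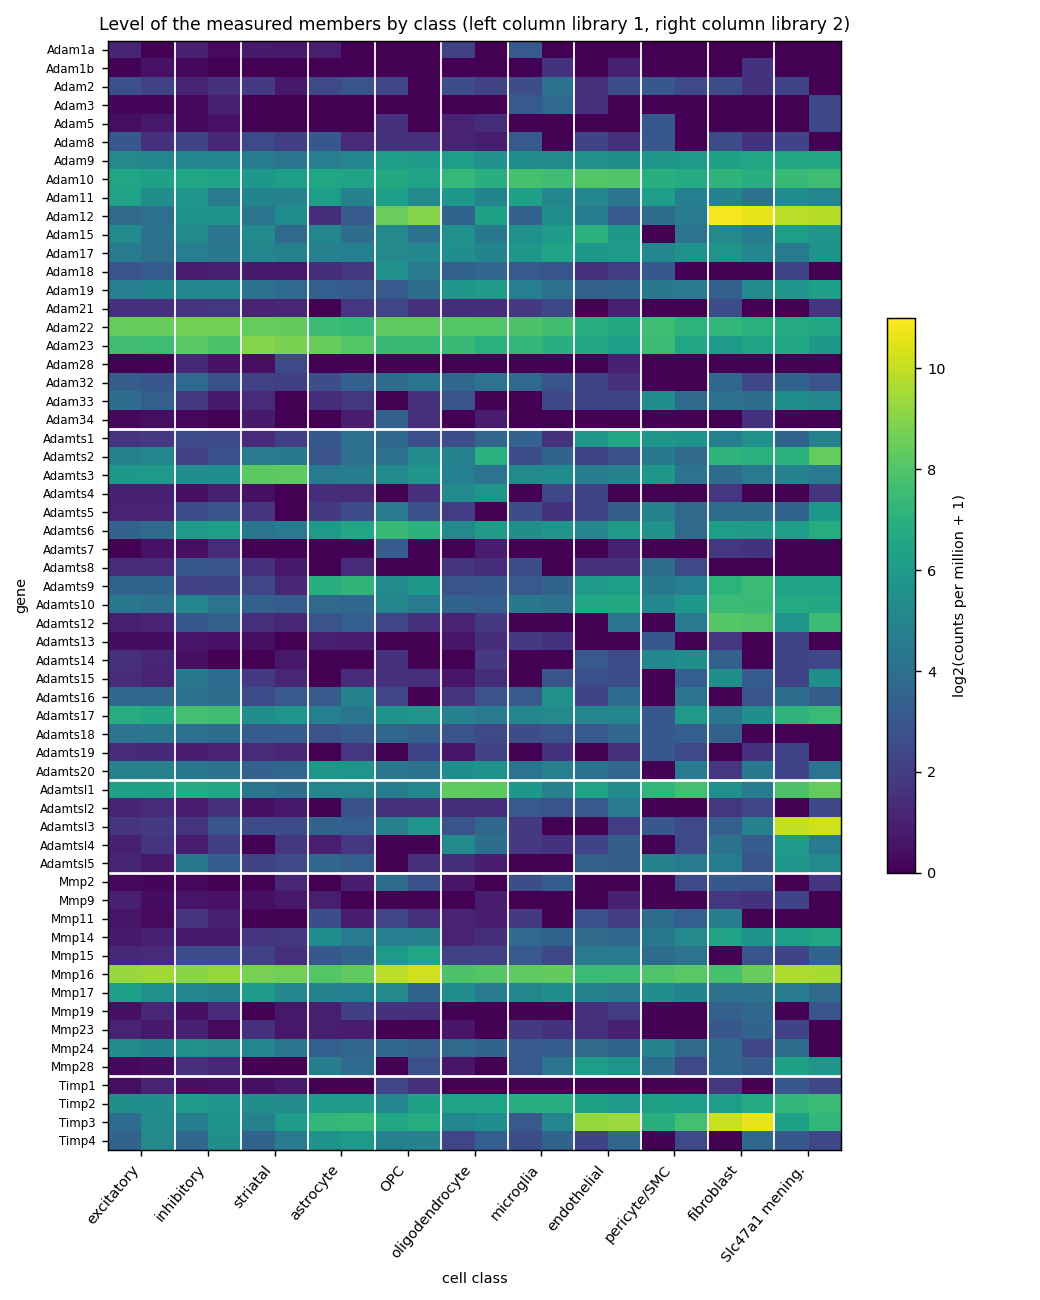
Level of the 60 measured members, log2 of CPM plus 1, in the 11 compared classes, with library 1 in the left and library 2 in the right column of each class. Within their rows, Adam12 and Timp3 are brightest in the fibroblast columns and Adamtsl3 in the Slc47a1 class, while Mmp16 is bright in all 11 classes.

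Together the measured members made up 0.502% and 0.524% of all UMIs in fibroblasts and 0.490% and 0.565% in the Slc47a1 class. In the other classes their share ran from 0.170% in microglia to 0.334% in oligodendrocyte precursors. Adam12, Timp3 and Adamtsl3 carried much of that excess. Without these 3 genes the share was 0.209% and 0.214% in fibroblasts and 0.290% and 0.340% in the Slc47a1 class, against 0.157% to 0.266% in the others.

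Among the ADAM genes, Adam12, a protease known to release membrane-bound growth factors and to cut IGF-binding proteins, was the member most marked by fibroblasts. Adam12 (chromosome 7, 133883199 to 134232146, minus strand) stood at 1847 CPM (1721 to 1980) in library 1 and 1547 CPM (1439 to 1662) in library 2. The Slc47a1 class followed at 920 and 911 CPM and oligodendrocyte precursors at 360 and 507 CPM. Those 3 classes did not overlap in either library, and the remaining classes lay between 1.74 and 74.3 CPM. With each nucleus thinned to 1500 UMIs, an Adam12 UMI was found in 84.0% and 70.4% of fibroblast nuclei and 39.1% and 47.8% of precursors, against 0.473% and 0.966% of astrocytes, the class with the lowest share in both libraries. Without thinning the fibroblast shares were 93.4% and 84.4%. Adam33, a catalytically active ADAM, was concentrated in the Slc47a1 class on few molecules, 11 UMIs (39.4 CPM) and 15 UMIs (32.2 CPM), and in library 1 the pericyte class with 6 UMIs stood at 41.2 CPM. The excitatory cluster with Rorb, described below, stood at 51.1 and 37.2 CPM from 206 and 191 UMIs, so the class call does not mark the highest cluster. The Adam33 call was lost when nuclei with high doublet scores were kept, when 5 CPM rather than 1 CPM was added, and with nuclei thinned to 1500 UMIs, where the levels were 14.8 and 34.0 CPM.

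Adam18 and Adam3 are known as sperm surface proteins. Adam18 was concentrated in oligodendrocyte precursors at 45.0 and 21.5 CPM, from 23 and 12 UMIs, with excitatory neurons at 6.57 and 8.28 CPM. That class level averages over uneven clusters. The excitatory cluster led by L3mbtl4, described below, stood at 40.3 and 41.0 CPM from 98 and 109 UMIs. Adam3, named here after its values were seen, was concentrated in microglia on 3 and 6 UMIs alone. Neither call held with 5 CPM added.

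The sheddases Adam10 and Adam17, which release Notch, amyloid precursor protein, TNF and other proteins, were broadly spread. Adam10, the main alpha-secretase, was highest in endothelial nuclei, with 262 CPM (221 to 309) in library 1 and 255 CPM (226 to 288) in library 2. Microglia followed, with 220 CPM (176 to 271) in library 1 and 195 CPM (158 to 239) in library 2, and their intervals overlapped the endothelial ones. Striatal neurons were lowest at 56.6 and 68.3 CPM. Endothelial nuclei held Adam17 at 56.9 and 63.4 CPM, whereas microglia held 55.0 and 85.1 CPM, with overlapping intervals, against 21.8 and 15.6 CPM in excitatory neurons. Iah1 overlaps Adam17 on the opposite strand.

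The non-catalytic ADAMs that bind LGI proteins at synapses had their highest levels in neurons. Adam22, the postsynaptic LGI1 receptor, stood at 402 CPM in inhibitory neurons in both libraries (intervals 385 to 418 and 383 to 421) and at 341 and 348 CPM in excitatory neurons, with intervals that did not overlap between these classes. The lowest Adam22 levels were 107 and 96.7 CPM, in the Slc47a1 class. Adam23 was highest in striatal neurons at 518 and 437 CPM, and astrocytes came next in both libraries at 349 and 262 CPM. Adam11 was highest in excitatory neurons at 82.5 and 41.9 CPM, and only 1.55-fold and 1.52-fold above the mean of the other classes. 

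All 19 ADAMTS genes were measured, and 6 of them were concentrated in a class. The procollagen N-propeptidases Adamts2, Adamts3 and Adamts14 each had a different class. Adamts2 was concentrated in the Slc47a1 class at 129 CPM (90.2 to 178) and 335 CPM (285 to 392), with fibroblasts at 140 and 127 CPM; in library 1 the 2 fibroblast classes overlapped. Adamts3, which also takes part in VEGF-C activation and cuts reelin, was concentrated in striatal projection neurons at 299 CPM (279 to 321) and 312 CPM (285 to 340), while every other class lay between 14.0 and 58.3 CPM. Its UMIs were found in 35.4% and 38.2% of striatal nuclei thinned to 1500 UMIs, and in 8.33% and 8.13% of excitatory nuclei. Adamts14, named after its values were seen, was concentrated in pericytes with smooth muscle at 34.3 and 43.5 CPM, from 5 and 10 UMIs.

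Adamts12 and Adamts10 were concentrated in fibroblasts. Adamts12, known to cut cartilage oligomeric matrix protein, had 276 CPM (228 to 330) in library 1 and 248 CPM (206 to 296) in library 2. Its level in the Slc47a1 class was 53.7 CPM in library 1 and 187 CPM in library 2, and it was at most 21.8 CPM in the other classes. Adamts10, a gene linked to fibrillin microfibrils, stood at 177 and 172 CPM in fibroblasts, at 104 and 98.9 CPM in the Slc47a1 class and at 95.4 and 101 CPM in endothelial nuclei. Adamts10 was thus shared by fibroblast and endothelial classes, with neurons and glia between 8.07 and 31.3 CPM.

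The aggrecanases were split among classes. Adamts4 was concentrated in oligodendrocytes at 36.4 CPM (28.0 to 46.5) and 50.1 CPM (38.1 to 64.8), and no other compared class exceeded 4.15 CPM. Adamts1 was highest in endothelial nuclei at 55.0 and 90.8 CPM, with pericytes at 54.9 and 47.9 CPM, and missed the 4-fold rule in library 1 at 3.90-fold. Adamts5 had no class that was highest in both libraries; pericytes led with 4 UMIs (27.4 CPM) in library 1 and the Slc47a1 class with 27 UMIs (58.0 CPM) in library 2. Adamts13, the von Willebrand factor protease that is made mainly in liver, had 50 UMIs in all, none in endothelial nuclei (3 UMIs would be 5.50 and 2.84 CPM).

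The versican-cleaving Adamts9 was high in fibroblasts (135 and 178 CPM) and in astrocytes (118 and 144 CPM), with overlapping intervals in both libraries. Adamts17 was highest in inhibitory neurons at 206 and 196 CPM. Adamts20 was highest in astrocytes among compared classes, at 54.9 and 50.6 CPM.

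Of the ADAMTS-like genes, Adamtsl3 was the member most closely tied to 1 class. Its level in the Slc47a1 class was 1002 CPM (888 to 1127) and 1191 CPM (1094 to 1294), which is 122-fold and 91.4-fold the mean of the other classes. Oligodendrocyte precursors were next at 27.4 and 51.9 CPM, and the other fibroblast class had 9.34 and 26.6 CPM. Adamtsl3 UMIs were found in 56.7% and 64.3% of Slc47a1 nuclei thinned to 1500 UMIs, against 1.89% and 2.78% of fibroblasts. Adamtsl5 was concentrated in the same class at 53.7 and 36.5 CPM, from 15 and 17 UMIs, a call that was lost with 5 CPM added. Adamtsl1, whose span overlaps Sh3gl2 on the same strand, was highest in oligodendrocytes in library 1 (317 CPM) and in the Slc47a1 class in library 2 (342 CPM).

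**Figure D2:**
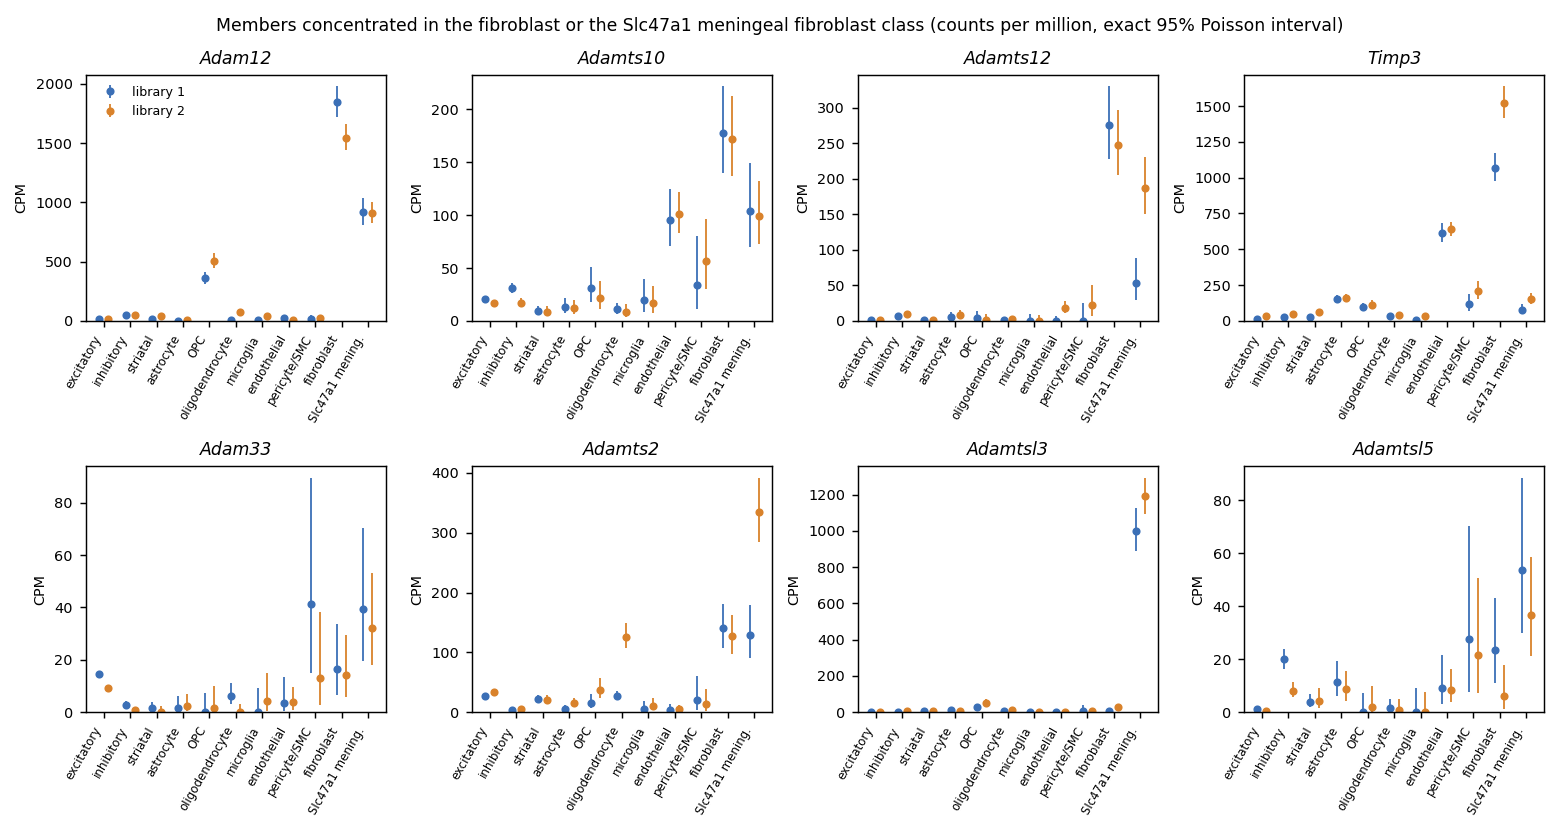
Level in CPM with exact 95% Poisson intervals of 8 members concentrated in fibroblasts (Adam12, Adamts10, Adamts12, Timp3) or in the Slc47a1 meningeal class (Adam33, Adamts2, Adamtsl3, Adamtsl5), by class and library. Adamtsl3 stands at 1002 and 1191 CPM in 1 class alone, whereas Adam12 and Adamts10 are raised in both fibroblast classes.

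The fibroblast class carried RNA marked for other cells. Its 8 astrocyte markers summed to 6268 and 5662 CPM, against 6758 and 6904 CPM in astrocytes. No astrocyte marker was at 0 there, and 4 and 2 of the 8 were below 0.1 of their astrocyte level. Its 8 endothelial markers summed to 1067 and 1071 CPM, against 9175 and 10934 CPM in endothelial nuclei. Its 8 pericyte markers summed to 535 and 980 CPM, against 5447 and 5161 CPM in the class of pericytes and smooth muscle, and Kcnj8 and Higd1b were at 0 in library 1. Adam12 was at 1.74 and 7.90 CPM in astrocytes and Adamts12 at 6.10 and 8.69 CPM. Timp3 stood at 154 and 162 CPM in astrocytes and 617 and 642 CPM in endothelial nuclei. The part of RNA from other cells in the fibroblast levels of these genes was not tested. In the Slc47a1 class the astrocyte markers summed to 1729 and 2216 CPM and the endothelial markers to 46.5 and 103 CPM.

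Promoter sequences, from 250 bases before to 50 bases after the RefSeq start on GRCm38.p6, were found for 35 of the 60 measured members. Those of 2 members concentrated in fibroblasts and 2 in the Slc47a1 class are shown because each pair shares a class. Capitals mark the letters GGGCGG or their reverse complement, a GC box, and CCGGAA, an ETS motif, on either strand. The TATA box TATAAA, the AP-1 motif TGANTCA and the E-box CACGTG were searched on both strands as well. GGGCGG is held by 35.7% of the 32851 RefSeq promoters of this length, CCGGAA by 14.9%, TATAAA by 13.6%, TGANTCA by 7.81% and CACGTG by 7.15%. Matches to the same letters may overlap each other, and no match overlapped one to another motif.
Timp3, chr10:86300162-86300461, plus strand: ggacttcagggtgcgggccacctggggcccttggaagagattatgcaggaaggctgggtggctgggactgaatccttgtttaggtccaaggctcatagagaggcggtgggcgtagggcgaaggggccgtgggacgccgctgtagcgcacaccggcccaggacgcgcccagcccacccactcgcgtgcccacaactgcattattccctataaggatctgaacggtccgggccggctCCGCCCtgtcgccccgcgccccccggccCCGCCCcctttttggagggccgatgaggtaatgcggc
Adamts12, chr15:11064523-11064822, plus strand: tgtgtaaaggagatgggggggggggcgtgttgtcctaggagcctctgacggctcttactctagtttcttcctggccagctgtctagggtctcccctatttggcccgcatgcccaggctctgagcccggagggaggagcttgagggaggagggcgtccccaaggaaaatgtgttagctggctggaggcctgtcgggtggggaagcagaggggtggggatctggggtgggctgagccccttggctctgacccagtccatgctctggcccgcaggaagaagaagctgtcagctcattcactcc
Adamtsl3, chr7:82335444-82335743, plus strand: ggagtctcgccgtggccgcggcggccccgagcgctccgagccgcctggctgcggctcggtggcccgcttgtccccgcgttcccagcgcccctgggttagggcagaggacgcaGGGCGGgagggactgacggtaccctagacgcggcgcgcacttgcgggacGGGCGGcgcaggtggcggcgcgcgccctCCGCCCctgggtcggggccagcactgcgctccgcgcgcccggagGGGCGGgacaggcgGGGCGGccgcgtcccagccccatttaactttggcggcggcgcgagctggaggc
Adamts2, chr11:50601835-50602134, plus strand: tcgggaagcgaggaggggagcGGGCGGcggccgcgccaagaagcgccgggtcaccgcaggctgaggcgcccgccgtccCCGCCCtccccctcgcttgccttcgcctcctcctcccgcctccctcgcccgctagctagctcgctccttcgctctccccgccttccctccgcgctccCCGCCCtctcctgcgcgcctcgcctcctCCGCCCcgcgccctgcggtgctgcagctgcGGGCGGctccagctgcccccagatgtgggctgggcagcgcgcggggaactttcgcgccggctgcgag
Timp3 held 2 matches to GGGCGG, Adamtsl3 and Adamts2 5 each, and Adamts12 held none of the 5 motifs. The Adamtsl3 and Adamts2 promoters had 46 and 41 CpG dinucleotides and a GC content of 78.7% and 77.3%. The Timp3 promoter had 24 CpG and 67.0%, and the Adamts12 promoter 7 CpG and 62.0%. The median over all promoters was 7 CpG and 52.7%. A match describes letters only, and the TATA box, AP-1 and E-box letters were not found in these 4 windows.

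Of 11 measured MMP genes, 3 were concentrated in a class. Mmp15, a membrane-anchored MMP, was concentrated in oligodendrocyte precursors at 62.6 CPM (42.8 to 88.4) and 91.3 CPM (68.0 to 120), with endothelial nuclei next at 22.0 and 21.8 CPM. Mmp28, known as epilysin, was concentrated in the Slc47a1 class at 75.2 and 53.7 CPM and in endothelial nuclei at 69.7 and 50.1 CPM, and astrocytes followed at 24.4 and 13.4 CPM. With 5 CPM added Mmp28 was called in neither class, and with nuclei thinned or weighted equally the endothelial call was lost. Mmp19, named after its values were seen, was concentrated in fibroblasts on 4 and 6 UMIs, and the call was lost with 5 CPM added.

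Mmp16, also a membrane-type MMP, was found in every class. It was highest in oligodendrocyte precursors at 941 CPM (859 to 1029) and 1188 CPM (1099 to 1281). The Slc47a1 class stood at 812 and 746 CPM and excitatory neurons at 625 and 687 CPM, and the lowest level was 178 and 184 CPM in endothelial nuclei. Mmp14, the membrane-type MMP that activates pro-MMP2, was highest in fibroblasts in library 1 (84.1 CPM) and in the Slc47a1 class in library 2 (88.1 CPM), with overlapping intervals between these classes in both libraries. Neurons had 0.664 to 2.48 CPM of Mmp14, and astrocytes 39.2 and 22.9 CPM.

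The gelatinases Mmp2 and Mmp9, often studied at the blood-brain barrier, were near the limit of detection. Mmp2 had 57 UMIs in all, and none in endothelial nuclei of either library. In library 1 it was highest in oligodendrocyte precursors, at 13.7 CPM from 7 UMIs, which had 5.37 CPM from 3 UMIs in library 2, where microglia were highest at 8.30 CPM from 4 UMIs. With a mitochondrial limit of 1%, Mmp2 was called in the precursors. Mmp9 had 64 UMIs in all, of which endothelial nuclei held 0 and 1, and microglia 0 in both libraries (3 UMIs would be 7.50 and 6.23 CPM). At the 5% limit and with the other main settings, neither gene was called in a class. Mmp9 was called in fibroblasts once nuclei were thinned to 1500 UMIs, at 6.29 and 6.17 CPM. Without thinning it had 2 UMIs there over both libraries. Mmp17 and Mmp24, also anchored in the membrane, were highest in neurons: Mmp17 in excitatory neurons at 72.2 and 45.2 CPM, and Mmp24 in inhibitory neurons at 45.8 and 35.0 CPM.

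The 4 TIMP genes differed from each other in their classes. Timp3, the TIMP that binds to the matrix and also blocks ADAM and ADAMTS enzymes, was concentrated in fibroblasts with 1070 CPM (974 to 1172) in library 1 and 1525 CPM (1417 to 1639) in library 2. Endothelial nuclei came next, with 617 CPM (552 to 686) in library 1 and 642 CPM (595 to 692) in library 2. Within the endothelial class, Timp3 stood at 624 and 1097 CPM in a cluster with arterial markers (17 and 63 nuclei) and at 616 and 535 CPM in the capillary and venous cluster. The Slc47a1 class had only 75.2 and 153 CPM, below astrocytes in library 1 by intervals that did not overlap, so the fibroblast classes differed for Timp3.

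Timp2, which helps MMP14 to activate pro-MMP2, was highest in the Slc47a1 class at 154 and 181 CPM, with microglia at 115 and 116 CPM. Its level was at least 31.3 CPM in every class, and Cep295nl overlaps it on the same strand. Timp4 was highest in astrocytes at 47.1 CPM (35.4 to 61.4) and 60.1 CPM (47.3 to 75.2). In library 2 that interval overlapped the one of inhibitory neurons, at 42.5 CPM (36.7 to 49.0). Timp1 had 82 UMIs in all, and its highest level, 7.16 and 4.30 CPM in the Slc47a1 class, came from 2 UMIs in each library. It was called in that class only under alternatives, at 7.41 and 6.80 CPM with nuclei thinned and at 7.11 and 5.52 CPM with equal weights. Timp1, Timp3 and Timp4 lie in the span of Syn1, Syn3 and Syn2 on the opposite strand, and whether the counting used strand is not given in the sources used here. Syn3 stood at 244 and 231 CPM in excitatory neurons, where Timp3 was at 13.6 and 37.3 CPM. In fibroblasts Syn3 stood at 112 and 358 CPM, and Timp3 at 1069.5 and 1525 CPM.

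**Figure D3:**
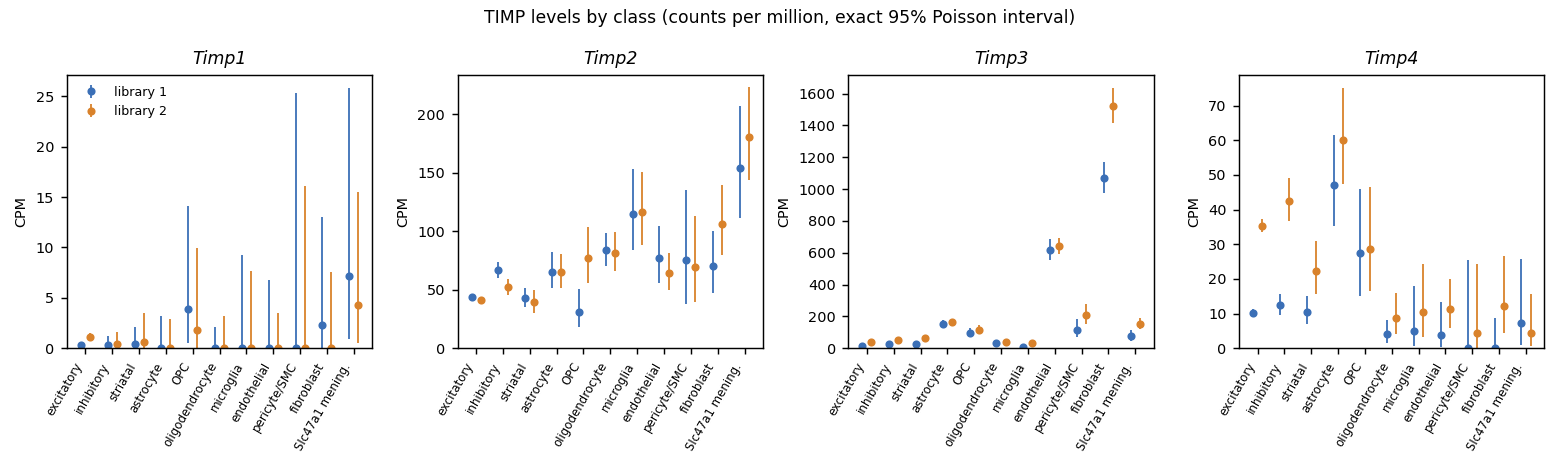
Level in CPM with exact 95% Poisson intervals of the 4 TIMP genes by class and library, on a separate linear axis for each gene. Timp3 is highest in fibroblasts and endothelial nuclei, Timp2 in the Slc47a1 class and Timp4 in astrocytes, while Timp1 does not pass 7.16 CPM.

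Within neurons, 18 clusters with at least 50 nuclei in each library, 1 of them without a class name, were compared by the same rule. Of the 60 members, 14 were concentrated in 1 of these clusters, against 4.39% of all genes. The parvalbumin interneuron cluster (270 and 213 nuclei) held 4 of the 60 members, against 0.691% of all genes: Adamts5, Adamts8, Adamts15 and Adamtsl5. Adamts15, which cuts aggrecan and versican, had 47.4 CPM (39.0 to 57.1) in library 1 and 32.0 CPM (23.9 to 41.8) in library 2. The next cluster had 6.32 and 3.19 CPM, so the intervals were apart. Adamtsl5 stood at 45.7 and 21.7 CPM, with the next cluster at 8.22 and 4.34 CPM. Adamts8 was at 15.2 and 15.1 CPM and Adamts5 at 10.2 and 10.9 CPM, and the intervals of these 2 genes overlapped those of the next cluster in both libraries. Thinned to 1500 UMIs, 7.41% and 3.29% of parvalbumin nuclei had an Adamts15 UMI, against 0.518% and 0.546% of somatostatin nuclei; without thinning the shares in parvalbumin nuclei were 30.4% and 20.7%.

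The somatostatin cluster (0.454% of all genes) and the Vip cluster (0.533% of all genes) held 1 member each. Adamts12 was concentrated in the somatostatin cluster at 18.1 and 21.8 CPM, and the parvalbumin cluster was next at 2.96 and 6.03 CPM. Adam12 was highest in the Vip cluster at 131 and 110 CPM, and the CA1 cluster followed at 88.4 and 85.1 CPM with overlapping intervals in library 2. Adamts12 and Adam12 were thus fibroblast members that were also uneven among interneurons.

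Among excitatory clusters, Adam33 was the 1 member in middle-layer neurons with Rorb (0.0897% of all genes), at 51.1 CPM (44.4 to 58.6) and 37.2 CPM (32.1 to 42.9), with upper-layer neurons next at 26.4 and 13.5 CPM. The median of the other clusters was 2.79 and 1.14 CPM. A cluster led by L3mbtl4 held Adam18 (40.3 and 41.0 CPM), Adamts18 (67.0 and 65.4 CPM) and Adamts2 (93.7 and 112 CPM). Adam18 in near-projecting neurons was next at 23.1 and 20.7 CPM. For both Adam18 and Adamts2 the intervals overlapped those of the next cluster in library 1 and were apart in library 2. That cluster thus held 3 members, against 0.127% of all genes. Adamtsl2 was called in a cluster led by Col24a1 and Oprk1 (0.396% of all genes) on 4 and 6 UMIs. Adamts3 was concentrated in the striatal cluster (0.67% of all genes) also within neurons, with the Col24a1 cluster next at 190 and 177 CPM.

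The CA3 cluster (140 and 116 nuclei) held 2 members, Adamts9 and Adamts14, against 0.306% of all genes. Adamts9 stood at 86.7 CPM (72.6 to 103) and 91.4 CPM (76.3 to 109), where the next cluster had 29.8 and 30.0 CPM. Thinned to 1500 UMIs, 13.6% and 13.8% of CA3 nuclei had an Adamts9 UMI. Adamts14 stood at 28.3 and 12.7 CPM, with CA1 next at 2.97 and 3.15 CPM, and the median of the other clusters was 0. The promoters of this pair are shown with the same motifs in capitals.
Adamts9, chr6:92943485-92943784, minus strand: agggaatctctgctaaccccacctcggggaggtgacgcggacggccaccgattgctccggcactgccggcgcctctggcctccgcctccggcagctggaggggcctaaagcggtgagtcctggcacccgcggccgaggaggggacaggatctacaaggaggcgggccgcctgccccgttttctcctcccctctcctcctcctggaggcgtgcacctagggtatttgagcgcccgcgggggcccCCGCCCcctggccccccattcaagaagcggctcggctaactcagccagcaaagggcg
Adamts14, chr10:61273370-61273669, minus strand: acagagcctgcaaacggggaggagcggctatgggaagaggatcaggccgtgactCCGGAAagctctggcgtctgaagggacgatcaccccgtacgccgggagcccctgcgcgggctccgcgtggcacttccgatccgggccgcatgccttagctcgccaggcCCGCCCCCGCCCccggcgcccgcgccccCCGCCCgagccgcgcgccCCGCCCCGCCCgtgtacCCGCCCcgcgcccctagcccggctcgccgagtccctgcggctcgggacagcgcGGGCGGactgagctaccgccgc
Adamts9 held 1 match to GGGCGG, and Adamts14 held 7, of which a pair overlap, and 1 to CCGGAA. The TATA box, AP-1 and E-box letters were not found in either window.

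**Figure D4:**
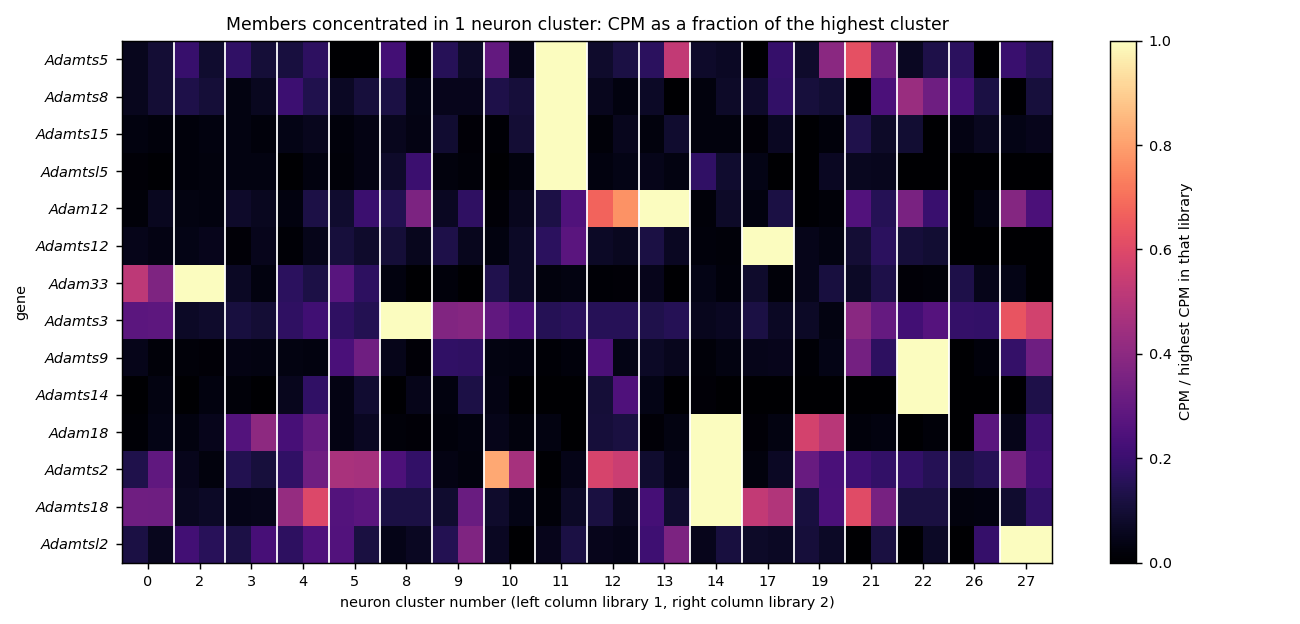
CPM of the 14 members concentrated in 1 neuron cluster, as a fraction of the highest of the 18 clusters in each library (left column library 1, right column library 2). Cluster 11 is parvalbumin, 13 Vip, 17 somatostatin, 2 Rorb, 8 striatal, 22 CA3, 14 led by L3mbtl4 and 27 by Col24a1; Adamts15, Adamtsl5, Adamts12 and Adamts14 are dark outside 1 cluster.

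The libraries were set side by side in each class. A member was called different where its CPM plus 1 differed at least 2-fold and the Poisson intervals did not overlap. Of 660 pairs of member and class, 18 were higher in library 2 (2.73%, against 1.64% of all pairs of gene and class) and 15 were higher in library 1 (2.27%, against 1.33%). The calls came from 19 members. Age and library cannot be told apart here, and no age is attached to any of these differences.

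Timp3 and Timp4 were the 2 members higher in library 2 in at least 3 classes, a pattern that 2.12% of all genes had. Excitatory neurons had 10.2 CPM of Timp4 (9.23 to 11.3) in library 1 and 35.4 CPM (33.6 to 37.3) in library 2, inhibitory neurons 12.3 and 42.5 CPM, and striatal neurons 10.5 and 22.3 CPM. In astrocytes, where Timp4 was highest, the intervals overlapped. For Timp3, excitatory neurons had 13.6 and 37.3 CPM, striatal neurons 26.6 and 65.2 CPM and the Slc47a1 class 75.2 and 153 CPM. Timp3 was higher in library 2 in 11 of 11 classes, by 1.04-fold to 4.15-fold, and the highest ratio came from microglia with 3 UMIs in library 1 (7.50 and 31.1 CPM). Over the 10 classes with at least 5 UMIs in each library, its log2 ratio ran from 0.06 to 1.40. Summed levels of markers of other cells were also set beside Timp3. The summed level of endothelial markers was higher in library 2 in 11 of 11 classes, with 26.8 and 65.8 CPM in excitatory neurons, 20.2 and 75.7 CPM in striatal neurons and 46.5 and 103 CPM in the Slc47a1 class. The summed level of pericyte and smooth muscle markers was 23.6 and 56.5 CPM, 27.4 and 77.6 CPM, and 93.1 and 185 CPM in those same classes. It was lower in library 2 in endothelial nuclei (2932 and 2504 CPM) and in pericytes with smooth muscle (7409 and 7189 CPM). Microglia markers summed to 35.0 and 60.4 CPM, 35.6 and 57.1 CPM, and 64.4 and 120 CPM in the same neurons and Slc47a1 class. In oligodendrocytes they summed to 77.9 and 77.8 CPM. The part of RNA from any of these cells in the Timp3 result was not tested. Syn2, which spans Timp4 on the opposite strand, was lower in library 2 in 10 of 11 classes, and Syn3, which spans Timp3, was called higher in library 2 in 3 classes.

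Adam15, a membrane ADAM with an integrin-binding motif, was the only member higher in library 1 in at least 3 classes, as were 0.94% of all genes. Its level was 38.6 and 16.1 CPM in excitatory neurons, 32.2 and 14.2 CPM in astrocytes, 45.5 and 20.7 CPM in oligodendrocytes and 128 and 57.7 CPM in endothelial nuclei, and it was called in striatal neurons too. Microglia did not follow, with 45.0 and 64.4 CPM and overlapping intervals. Adam11 was lower in library 2 in 11 of 11 classes and was called in inhibitory neurons (53.8 and 22.6 CPM) and astrocytes (68.0 and 27.7 CPM); in excitatory neurons, at 82.5 and 41.9 CPM, the ratio was just under 2-fold.

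**Figure D5:**
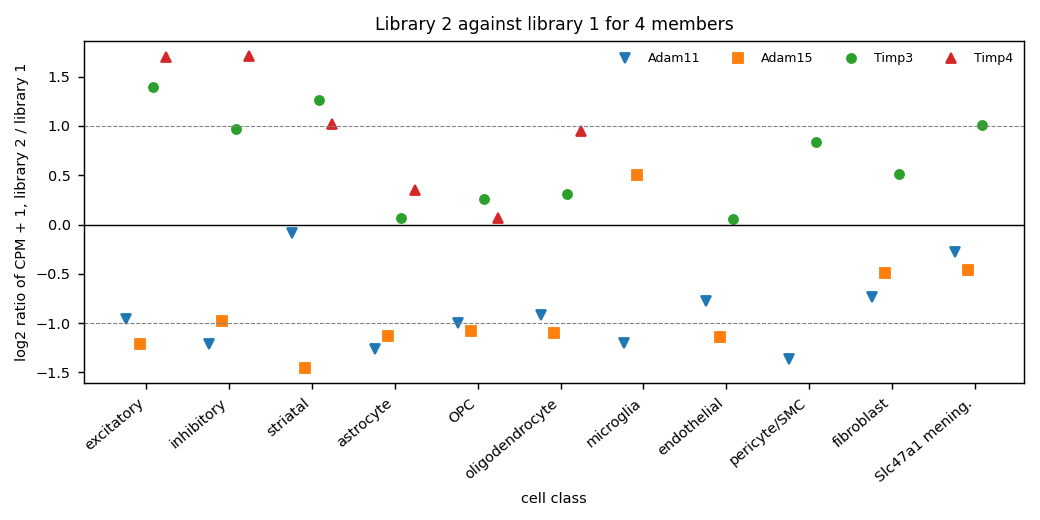
Log2 ratio of CPM plus 1, library 2 over library 1, for Adam11, Adam15, Timp3 and Timp4 in the 11 classes, shown where each library held at least 5 UMIs; dashed lines mark a 2-fold ratio. Adam11 lies below 0 in 11 of 11 classes shown and Timp3 above 0 in 10 of 10.

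By class, excitatory neurons held 2 members higher in library 2, Timp3 and Timp4 (4.14% of all genes were), and 3 higher in library 1, Adam15, Adam1a and Adam8 (2.35%). Inhibitory neurons held Timp4 and Adamtsl3 (3.76%) against Adam11, Adam32 and Adamtsl5 (2.46%), and striatal neurons held Timp3, Timp4 and Adam12 (2.04%) against Adam15 (2.18%). Astrocytes held Adamts16 (1.48%) against Adam15 and Adam11 (1.13%). Among other glia, oligodendrocytes held Adam12 and Adamts2 (2.00%) against Adam15 and Adamtsl4 (1.84%), precursors held Timp2 (0.85%) against 0 (0.633%), and microglia held Adamts16 (0.707%) against 0 (0.649%). Endothelial nuclei held Adamts12 (1.15%) against Adam15 and Adamtsl1 (1.46%), and fibroblasts held 0 (0.892%) against Adamts15 and Mmp11 (0.85%). Pericytes with smooth muscle, the class with fewest nuclei, held 0 in either direction (0.232% and 0.348%).

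In the Slc47a1 class 5 members were higher in library 2 (0.823% of all genes were) and 0 were higher in library 1 (0.702% of all genes were). These were Adamts2 (129 and 335 CPM), Adamts12 (53.7 and 187 CPM), Adamts5 (10.7 and 58.0 CPM), Adamts15 (3.58 and 43.0 CPM) and Timp3. The summed level of 8 fibroblast markers in this class was also higher in library 2, 3304 against 5509 CPM, and the part of that make-up in these differences was not tested. Adamts15 went the other way in fibroblasts, with 42.0 and 8.19 CPM, from 18 and 4 UMIs.

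In oligodendrocytes Adam12 (10.2 and 74.3 CPM) and Adamts2 (26.7 and 126 CPM) were higher in library 2. Nearly all oligodendrocytes of library 1 lay in cluster 6 (877 and 54 nuclei) and most of library 2 in cluster 16 (16 and 365). Within cluster 6, Adamts2 was at 26.9 CPM from 46 UMIs and 100 CPM from 12 UMIs, and Adam12 at 9.94 CPM from 17 UMIs and 25.0 CPM from 3 UMIs. Adamts16 was higher in library 2 in astrocytes (7.84 and 27.7 CPM) and microglia (7.50 and 45.7 CPM, from 3 and 22 UMIs). Adamts12 had 0 UMIs in endothelial nuclei of library 1 (3 UMIs would be 5.50 CPM) and 19 in library 2. Adam12 was higher in library 2 in striatal neurons too, at 18.7 and 39.7 CPM. Adamtsl3 was called in inhibitory neurons alone (2.26 and 6.20 CPM) and Timp2 in oligodendrocyte precursors alone (31.3 and 77.0 CPM).

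The other members higher in library 1 were each called in 1 class. Adam1a stood in excitatory neurons at 1.21 CPM from 45 UMIs against 0.049 CPM from 2 UMIs, and Adam8 at 6.95 against 1.93 CPM. Inhibitory neurons had Adam32 at 12.7 against 5.53 CPM and Adamtsl5 at 19.96 against 8.19 CPM. Adamtsl4 was at 35.8 against 14.7 CPM among oligodendrocytes, and Adamtsl1 at 80.7 against 37.8 CPM among endothelial nuclei. Mmp11 in fibroblasts had 10 UMIs (23.4 CPM) in library 1 and 0 in library 2, where 3 UMIs would be 6.14 CPM.

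Other genes of the pathway, from lists on partners and targets of these enzymes, were counted by the same rule of concentration, beside the 13.1% of all genes. Of 8 measured partners of ADAM10 and ADAM17, 2 were concentrated: the tetraspanin Tspan15, which directs ADAM10, in oligodendrocytes at 70.5 and 75.2 CPM, and Rhbdf2, an inactive rhomboid that carries ADAM17 to the surface, in endothelial nuclei at 33.0 and 13.2 CPM. Of 5 ligands and scaffolds of ADAM22, ADAM23 and ADAM11, Lgi3 was concentrated in oligodendrocytes at 139 and 167 CPM and Lgi4 in astrocytes at 87.2 and 56.1 CPM. Of 11 measured substrates shed by ADAMs, 3 were concentrated, Notch2 in the Slc47a1 class, Notch4 in endothelial nuclei and Nrg1 in striatal neurons.

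Of 4 convertases that activate the proenzymes, Pcsk5 was concentrated in the Slc47a1 class at 379 and 421 CPM. Of 10 other regulators and clearance genes, which are not all inhibitors, 5 were concentrated. Among them were Pcolce, which enhances procollagen C-proteinase, in fibroblasts at 51.4 and 32.8 CPM and Spock3 in striatal neurons. Of 9 genes on a list of other proteases and matrix enzymes, 4 were concentrated, and the heparanase gene Hpse was 1 of them. The procollagen C-proteinase Tll1 was concentrated in the Slc47a1 class at 415 and 374 CPM. Tissue plasminogen activator Plat was concentrated in endothelial nuclei at 349 and 267 CPM. Of 14 substrates of ADAMTS enzymes 9 were concentrated. The proteoglycan Vcan stood at 1109 and 742 CPM in oligodendrocyte precursors and Vwf at 303 and 304 CPM in endothelial nuclei, where no UMI of its protease Adamts13 was found. The collagens Col1a1, Col1a2 and Col3a1 and the proteoglycan Dcn, concentrated in fibroblasts, were also markers used to name that class, and are no independent evidence.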

How the data were processed

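The authors deposited 1 matrix of whole-number UMI counts per gene and nucleus, not normalized; per the file headers it was written by Cell Ranger 3.1.0, while the submitters' processing notes name Cell Ranger 2.0.1, Seurat 3.1, R 4.0.2 and the build mm10. Whether intronic reads were counted, and on which strand, is not given in the sources used here. Barcodes with at least 200 genes, at most 5% mitochondrial UMIs and a Scrublet doublet score under 0.2 were kept. That score limit was set after the scores were seen, since the automatic limit marked 0 and 192 barcodes. The 2 libraries were clustered together with scanpy 1.11.5 and leidenalg 0.10.2 under Python 3.11.15 on 2000 variable genes, 30 principal components, 15 neighbours and resolution 1. The members, the mitochondrial genes and those other list genes that were not class markers were left out of the variable genes. Marker levels were taken relative to the highest cluster, and a class was assigned if its markers averaged at least 0.33, at least 1.2-fold the next class, with 3 or more markers at 0.25; a cluster below these limits could be named from subtype markers leading its top genes. A cluster whose median UMI count was under 0.5 of that of all kept nuclei lost its name if its top 10 genes held no marker of the class. These thresholds were set after the clusters were seen. Counts were summed per class and library and scaled to a class sum of 1000000 (CPM) with exact 95% Poisson intervals; shares have exact Clopper-Pearson intervals. The matrix pools both samples with no map from barcodes to samples, so each library is a single value without replicates and no test was made. The concentration rule was run on simulated data that held counting error only. The genes raised there all had many UMIs, so the simulation does not bear on calls that rest on few. Values are given for every member concentrated in a class with at least 20 UMIs there, the TIMP genes, Adam10, Adam17, Adam11, Adam22, Adam23, Mmp2, Mmp9, Mmp14, Adamts1, Adamts4, Adamts5, Adamts13, the members highest in each class and those that differ between libraries; members of neuron clusters and other members with values were named after these were seen. The members and lists were chosen with earlier results of these data known. Gene positions and overlaps are from GENCODE on mm10. Some marker and overlap details are not reported here.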

Additional observations from a re-analysis of the deposited data

How the results depend on the processing

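The alternatives were another doublet treatment, a stricter mitochondrial limit, another resolution, thinning, equal weights, 5 CPM in place of 1 CPM, a minimum of 50 UMIs and, chosen after seeing the data, both fibroblast classes pooled. The libraries changed order under at least 1 alternative for Adam10 in endothelial nuclei, Adam22 in inhibitory neurons, Mmp2 and Mmp15 in oligodendrocyte precursors, Adamts10 and Adamts12 in fibroblasts, and Adam33 and Adamtsl5 in the Slc47a1 class (Adam33 from 39.4 and 32.2 CPM to 14.8 and 34.0 CPM with nuclei thinned); none of these pairs was called different between libraries. Calls between libraries were computed again only with equal weights, which gave 28 rather than 33. With 5 CPM added, 10 members rather than 16 were concentrated: 1 in oligodendrocyte precursors, 0 in microglia, 0 in endothelial nuclei and 2 in the Slc47a1 class. Of the lists, 1 partner of ADAM10 and ADAM17 and 3 other regulators and clearance genes were then concentrated. With at least 50 UMIs microglia held 0. With nuclei thinned to 1500 UMIs, endothelial nuclei held 0, pericytes with smooth muscle 2 and fibroblasts 8, and with equal weights endothelial nuclei held 0. With a mitochondrial limit of 1%, inhibitory neurons held 2, astrocytes 2, oligodendrocyte precursors 4 and oligodendrocytes 3, where fewer nuclei and fewer classes were compared, and the cause was not tested; microglia, endothelial, mural and both fibroblast classes gave no value. At resolution 2 fibroblasts held 9, and the Slc47a1 class gave no value. There a cluster led by Bnc2, Slc47a1 and Adamtsl3 (68 and 80 nuclei) was named fibroblast, and only 23 and 19 nuclei kept the Slc47a1 name. The members gained by fibroblasts were Adamts2, Adamts15, Adamtsl3 and Mmp14, the same as with the fibroblast classes pooled. How the calls divide between the 2 fibroblast classes thus depended on the resolution. With the fibroblast classes pooled, they held 9 and endothelial nuclei 2. No paired analysis was possible because each group has 1 sample and no label ties the barcodes to a sample. Depth limits genes with few UMIs, such as Adam3, Adamts14 and Mmp19, whose calls rest on 9, 15 and 10 UMIs.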

Other observations

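Some classes held fewer than 50 nuclei in a library and were not compared. In ependymal nuclei (14 and 28), the ciliated cells that line the ventricles, Adamts20 stood at 1454 CPM (1151 to 1812) in library 1 and 1930.0 CPM (1690 to 2195) in library 2, and its UMIs were found in 14 of 14 and 27 of 28 nuclei. In perivascular macrophages (11 and 12 nuclei) Adam33 stood at 467 CPM from 11 UMIs and 129 CPM from 4 UMIs, in 7 of 11 and 3 of 12 nuclei. In newly formed oligodendrocytes of library 2 (42 nuclei) Adamts4 stood at 55.9 CPM and Adam18 at 68.8 CPM, each in 9 nuclei. In choroid plexus nuclei (23 and 13) Adamtsl1 stood at 206 and 286 CPM, in 14 of 23 and 9 of 13 nuclei.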
